A study of Mus musculus with 20 samples.

Results

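The hemoglobin genes described here are the 7 rows of the deposited mouse gene table whose symbol is Hbb-y, Hbb-bh1, Hbb-bs, Hbb-bt, Hba-x, Hba-a1 or Hba-a2, of 51810 genes in all. They comprise 4 beta-type and 3 alpha-type genes, of which 3 are embryonic and 4 adult. They were chosen by symbol, with the high level of Hbb-y in mTEChi against mTEClo of these libraries in view, so differences between these populations are given as a description with no test. The genotype calls of Hbb-y, Hbb-bs and Hbb-bt in mTEClo were also known by then. The study measured polyA RNA of medullary thymic epithelial cells (mTEC), the stromal cells of the thymic medulla, sorted into a population labelled mTEChi and another labelled mTEClo. The 4 groups were cHyper mTEChi, WT mTEChi, cHyper mTEClo and WT mTEClo, where WT is wild type at Trp53, the gene of the tumour suppressor p53, and cHyper is the other Trp53 genotype of the labels. What cHyper stands for, the alleles and drivers behind it, and the surface gates that separated mTEChi and mTEClo stand in no source used here. All mice were 4 to 5 weeks old, and 75000 sorted cells went into a sample.

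Hemoglobin carries oxygen in red blood cells as a tetramer of alpha-type and beta-type chains, and each chain holds a heme group. The genes lie in 2 clusters, and development switches each cluster from embryonic genes, used by the primitive red cells of the yolk sac, to adult genes, used by definitive red cells. Medullary thymic epithelial cells are known for transcribing many genes that are otherwise restricted to other tissues, partly through the regulator Aire, so that developing T cells meet these self-antigens.

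Each group had 3 libraries, numbered 1 to 3. Totals ran from 42.08 to 47.93 M fragments in replicates 1 and 2 and from 22.02 to 25.31 M in replicate 3. Replicate 3 of every group also stood apart in sex-linked RNA, with 1049 to 1704 counts per 1000000 fragments (CPM) of Xist and 0 fragments of Ddx3y, against 4.13 to 7.77 CPM of Xist in replicates 1 and 2. Trp53 itself averaged 134 ± 4.65 CPM in cHyper mTEChi and 101 ± 4.60 CPM in WT mTEChi (SD, n = 3 each), a log2 fold change of 0.41 (edgeR adjusted p = 0.0200). In mTEClo it averaged 166 ± 11.6 CPM in cHyper and 137 ± 0.958 CPM in WT, with a log2 fold change of 0.27 that missed the threshold (edgeR adjusted p = 0.0553). The epithelial marker Epcam was present in all 4 groups, at group means of 508 to 540 transcripts per 1000000 (TPM). Aire marked the sort, with 991 ± 218 TPM in cHyper mTEChi, 1229 ± 66.7 TPM in WT mTEChi, 24.5 ± 3.18 TPM in cHyper mTEClo and 7.95 ± 1.23 TPM in WT mTEClo.

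On mm10 the beta-type genes lie on the minus strand of chromosome 7 in the order Hbb-bt (chr7:103812524-103813996), Hbb-bs (chr7:103826534-103828096), Hbb-bh1 (chr7:103841637-103843164) and Hbb-y (chr7:103851749-103853216). The alpha-type genes lie on the plus strand of chromosome 11 in the order Hba-x (chr11:32276400-32278116), Hba-a1 (chr11:32283511-32284465) and Hba-a2 (chr11:32296489-32297298). The 5′ ends of the coding sequences are printed here because they show which members sequencing reads can separate. They were read from the GENCODE M21 transcripts, coding bases 1 to 90, and capitals mark bases that differ from Hbb-bs in the beta-type genes and from Hba-a1 in the alpha-type genes.
Hbb-bs: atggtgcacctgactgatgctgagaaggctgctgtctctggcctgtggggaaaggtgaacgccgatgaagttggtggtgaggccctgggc
Hbb-bt: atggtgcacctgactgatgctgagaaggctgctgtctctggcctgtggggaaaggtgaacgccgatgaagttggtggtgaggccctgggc
Hbb-bh1: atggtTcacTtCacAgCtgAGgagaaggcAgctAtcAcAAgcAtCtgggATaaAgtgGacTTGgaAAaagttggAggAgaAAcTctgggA
Hbb-y: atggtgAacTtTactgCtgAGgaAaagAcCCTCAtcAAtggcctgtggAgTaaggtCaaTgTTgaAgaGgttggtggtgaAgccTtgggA
Hba-a1: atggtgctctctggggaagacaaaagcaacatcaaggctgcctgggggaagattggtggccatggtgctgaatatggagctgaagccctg
Hba-a2: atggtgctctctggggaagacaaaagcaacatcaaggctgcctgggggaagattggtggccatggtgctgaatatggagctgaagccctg
Hba-x: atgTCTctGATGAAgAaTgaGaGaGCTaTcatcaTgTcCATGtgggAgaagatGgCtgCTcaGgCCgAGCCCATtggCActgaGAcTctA

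In this stretch Hbb-bh1 differed from Hbb-bs at 29 bases, Hbb-y at 26, and Hba-x from Hba-a1 at 44. Each adult pair had no difference there, and over the whole coding sequence of 444 bases Hbb-bs and Hbb-bt differed by 1 substitution, C417T, counted from the A of the start codon and written with the Hbb-bs base first. Hba-a1 and Hba-a2 differed over 429 coding bases by C381T, with the Hba-a1 base first. The 2 sites are shown with 20 bases on each side and the differing base in capitals.
Hbb-bs: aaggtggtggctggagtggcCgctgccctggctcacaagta
Hbb-bt: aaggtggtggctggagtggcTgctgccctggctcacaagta
Hba-a1: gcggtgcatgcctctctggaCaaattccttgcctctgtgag
Hba-a2: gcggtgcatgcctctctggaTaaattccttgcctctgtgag

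The longest coding run without a difference was 416 bases in the adult beta pair and 380 bases in the adult alpha pair. Reads from these runs cannot be assigned to 1 copy, so the split within each adult pair depends on how the authors' counting treated such reads, and the values of single adult copies are uncertain. The sum of a pair does not depend on that split, but it would be too low if such reads were dropped, and the treatment of reads that map to several places is not given in the sources used here. Levels of adult against embryonic genes, and the shares, orders and ratios built on them, carry this limit. Hbb-y and Hbb-bh1 were 76.4% identical, each was 73.9% to 74.3% identical to the adult beta genes, and Hba-x was 61.8% to 62.0% identical to the adult alpha genes, so these 3 embryonic genes are separable.

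The embryonic beta-type genes were abundant in mTEChi of both genotypes and nearly missing from mTEClo. Hbb-y, the epsilon-type chain of yolk sac red cells, was at 36.5, 45.8 and 43.1 TPM in the 3 cHyper mTEChi libraries and 35.5, 40.9 and 43.8 TPM in the 3 WT mTEChi libraries. It was at 0.383, 1.05 and 0.828 TPM in cHyper mTEClo, from 5, 14 and 6 fragments. In WT mTEClo it was at 0 TPM in all 3 libraries. The mTEChi libraries of the genotypes overlapped, every mTEChi library was above every mTEClo library, and every cHyper mTEClo library was above every WT mTEClo library.

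Hbb-bh1, the beta-h1 chain expressed early in primitive red cells, was at 31.3, 32.3 and 25.2 TPM in cHyper mTEChi and 19.6, 24.9 and 31.7 TPM in WT mTEChi. In mTEClo it had 0, 10 and 3 fragments in cHyper (0, 0.774 and 0.428 TPM) and 0, 1 and 0 fragments in WT (0, 0.0797 and 0 TPM). Its mTEClo libraries overlapped between the genotypes, since replicate 1 of both had no fragment. In cHyper, Hbb-y was 51.0-fold higher in mTEChi than in mTEClo by the group means in CPM, and Hbb-bh1 had a fitted log2 fold change of 6.05. In WT, where Hbb-y had 1232 fragments in mTEChi and 0 in mTEClo, the difference was at least 363-fold, with the WT mTEClo group set to a floor of 3 fragments in all (0.0281 CPM). For Hbb-bh1 in WT the ratio of the summed fragments, scaled by depth, was 653 with a 95% interval from 117 to 25840.3, which covers counting error only.

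The adult beta genes had another distribution. Hbb-bs was at 18, 22.3 and 16.2 TPM in cHyper mTEChi, 20.9, 27.7 and 23.7 TPM in WT mTEChi, 13.6, 13.3 and 4.44 TPM in cHyper mTEClo and 40.2, 33.4 and 24.9 TPM in WT mTEClo. Its lowest library was cHyper mTEClo replicate 3 and its highest WT mTEClo replicate 1. By CPM, mTEChi was above mTEClo without overlap in cHyper, with a log2 fold change of 0.70, and below it without overlap in WT, with a log2 fold change of -0.64; in TPM the WT populations overlapped. Hbb-bt was at 14.1, 20.3 and 16.5 TPM in cHyper mTEChi, 15.3, 21.3 and 23.6 TPM in WT mTEChi, 4.34, 5.2 and 2.11 TPM in cHyper mTEClo and 15.8, 13.6 and 6.52 TPM in WT mTEClo. Its WT populations overlapped, with a log2 fold change of 0.54 for mTEChi over mTEClo, while its cHyper populations did not, with 1.96.

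The alpha-type genes followed the embryonic beta genes in being high in mTEChi, in their adult as in their embryonic members. Hba-x, the zeta-type embryonic chain, was at 37.2, 34.6 and 33.3 TPM in cHyper mTEChi, 41.4, 42.7 and 56.8 TPM in WT mTEChi, 0.155, 0.405 and 0.0932 TPM in cHyper mTEClo and 0.112, 0.261 and 0.208 TPM in WT mTEClo. Its mTEClo values rested on 12 fragments in cHyper and 9 in WT. Hba-a1 was at 46.3, 35.0 and 35.3 TPM in cHyper mTEChi, 43.1, 47.6 and 57.5 TPM in WT mTEChi, 0.954, 3.10 and 2.26 TPM in cHyper mTEClo and 1.48, 1.81 and 0.360 TPM in WT mTEClo.

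Hba-a2 was at 53.4, 36.9 and 42.9 TPM in cHyper mTEChi, 49.8, 55.4 and 61.8 TPM in WT mTEChi, 1.38, 3.41 and 2.49 TPM in cHyper mTEClo and 1.81, 2.42 and 0.439 TPM in WT mTEClo. For all 3 alpha genes every mTEChi library was above every mTEClo library, and the genotypes overlapped in mTEClo. The log2 fold changes of mTEChi over mTEClo were 7.03 in cHyper and 7.69 in WT for Hba-x, 4.08 and 5.02 for Hba-a1, and 4.06 and 4.83 for Hba-a2. Counted by member in CPM, every mTEChi library exceeded every mTEClo library for all 7 in cHyper and for 5 in WT, where Hbb-bt overlapped and Hbb-bs lay the other way. Among all 28932 genes tested the same held for 40.3% in cHyper and 41.8% in WT, and the other way lay 28.4% in cHyper and 31.4% in WT. Since this contrast entered the choice of the members, nothing is read from their count.

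**Figure D1:**
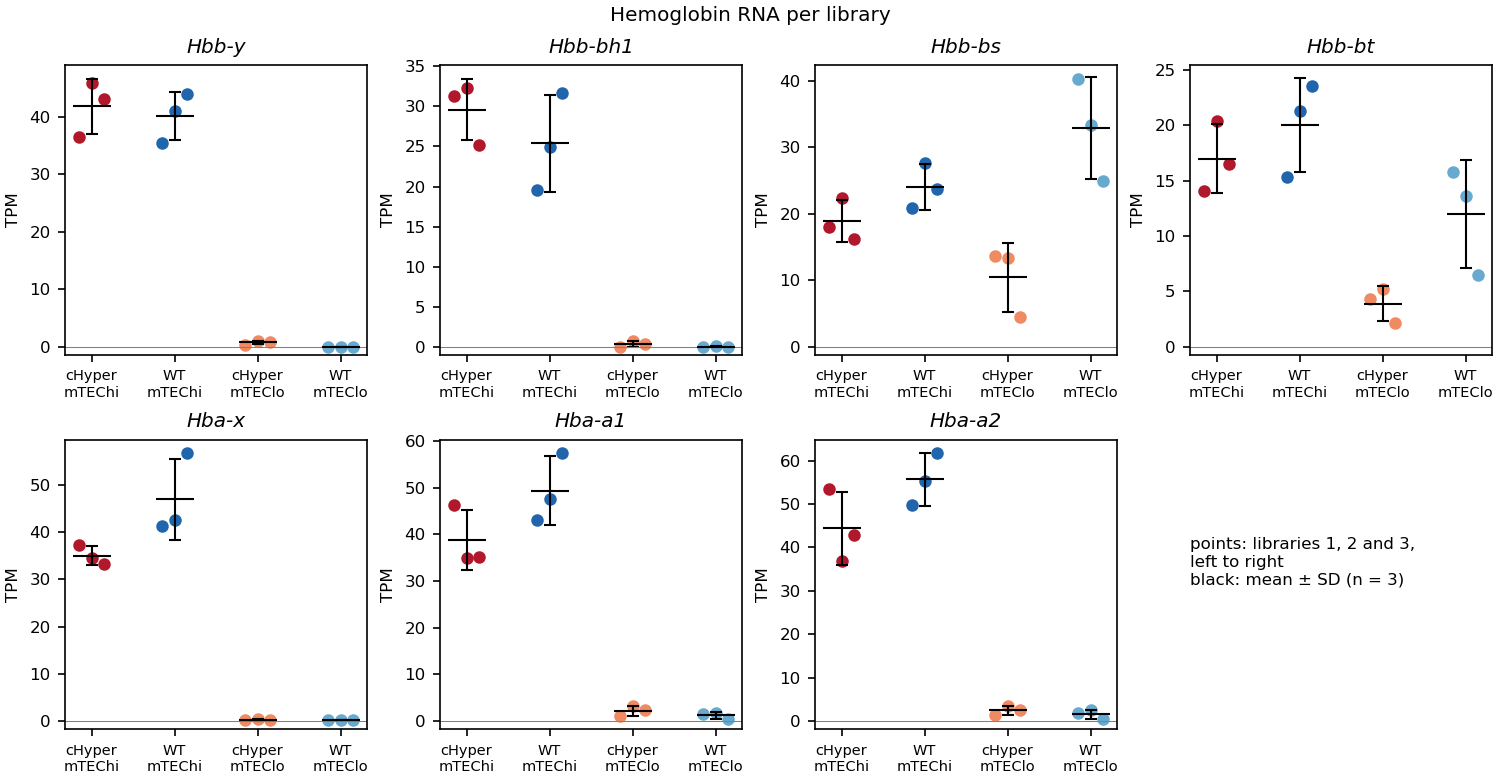
TPM of each hemoglobin gene (y axis) in the 12 libraries, with cHyper mTEChi, WT mTEChi, cHyper mTEClo and WT mTEClo from left to right on the x axis; points are libraries and black bars the mean ± SD of 3. Hbb-bs and Hbb-bt keep 24.9 to 40.2 and 6.52 to 15.8 TPM in WT mTEClo, where Hbb-y has none.

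Ranked by mean TPM, a scale that allows for gene length, the order in WT mTEChi was Hba-a2 (55.6 ± 6.01), Hba-a1 (49.4 ± 7.38), Hba-x (47.0 ± 8.56), Hbb-y (40.1 ± 4.24), Hbb-bh1 (25.4 ± 6.07), Hbb-bs (24.1 ± 3.42) and Hbb-bt (20.1 ± 4.24; SD, n = 3). Neighbours in this order differed by less than the larger of their SDs, except Hbb-y and Hbb-bh1. In cHyper mTEChi the order was Hba-a2 (44.4 ± 8.39), Hbb-y (41.8 ± 4.78), Hba-a1 (38.8 ± 6.44), Hba-x (35.1 ± 1.97), Hbb-bh1 (29.6 ± 3.85), Hbb-bs (18.9 ± 3.15) and Hbb-bt (17.0 ± 3.14), with the gaps below Hba-x and below Hbb-bh1 larger than the SDs on either side.

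In mTEClo the adult beta genes led in both genotypes. Hbb-bs averaged 10.4 ± 5.21 TPM in cHyper and 32.9 ± 7.69 TPM in WT, and Hbb-bt 3.88 ± 1.59 TPM in cHyper and 12 ± 4.85 TPM in WT. Hba-a2 followed at 2.43 ± 1.02 TPM in cHyper and 1.55 ± 1.01 TPM in WT, then Hba-a1 at 2.1 ± 1.08 TPM in cHyper and 1.22 ± 0.759 TPM in WT. The last places differed between the genotypes. In cHyper mTEClo they went to Hbb-y (0.753 ± 0.340 TPM), Hbb-bh1 (0.401 ± 0.388 TPM) and Hba-x (0.218 ± 0.165 TPM), and in WT mTEClo to Hba-x (0.193 ± 0.0755 TPM), Hbb-bh1 (0.0266 ± 0.0460 TPM) and Hbb-y (0 TPM).

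The summed TPM of the 7 genes was 226 ± 12.3 in cHyper mTEChi, 262 ± 36.7 in WT mTEChi, 20.2 ± 7.30 in cHyper mTEClo and 47.8 ± 13.9 in WT mTEClo. Embryonic genes made 47.3% ± 2.68 of the sum in cHyper mTEChi and 42.9% ± 1.32 in WT mTEChi, against 7.14% ± 4.14 in cHyper mTEClo and 0.496% ± 0.267 in WT mTEClo. The adult beta pair made 15.9% ± 2.64 in cHyper mTEChi, 16.9% ± 1.66 in WT mTEChi, 68.6% ± 17.2 in cHyper mTEClo and 94.1% ± 2.87 in WT mTEClo.

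Red cells need alpha-type and beta-type chains in balance. All alpha over all beta genes gave a TPM ratio of 0.881 to 1.37 in the cHyper mTEChi libraries and 1.27 to 1.47 in WT mTEChi, so both chains were at similar levels in mTEChi. In mTEClo the same ratio was 0.136, 0.341 and 0.620 in cHyper and 0.0607, 0.0952 and 0.0321 in WT. The adult beta pair exceeded the adult alpha pair 7.70-fold, 2.84-fold and 1.38-fold in cHyper mTEClo and 17.0-fold, 11.1-fold and 39.3-fold in WT mTEClo. Every cHyper mTEClo library was closer to an even ratio than every WT mTEClo library. In mTEChi the adult beta pair was below the adult alpha pair in all 6 libraries, at 0.322 to 0.594 of it in cHyper and 0.390 to 0.475 in WT.

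**Figure D2:**
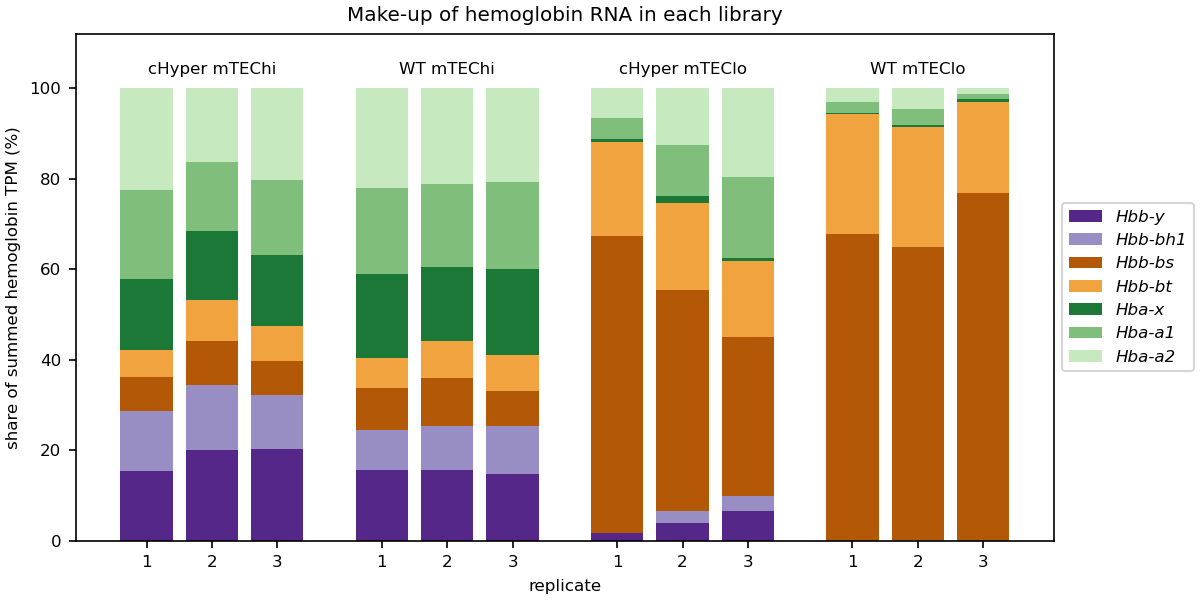
Share of each gene in the summed hemoglobin TPM (y axis, %) in each library, with the replicate number on the x axis and the groups named above the bars. Adult beta genes (orange) hold 91.2% to 96.9% of the sum in WT mTEClo, 51.8% to 86.2% in cHyper mTEClo and at most 18.8% in mTEChi.

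The split inside the adult beta pair also differed between the populations, within the limits that near-identical copies set. Hbb-bs took 54.8% ± 3.31 of the pair's fragments in cHyper mTEChi, 56.9% ± 4.03 in WT mTEChi, 73.6% ± 3.89 in cHyper mTEClo and 75.7% ± 4.33 in WT mTEClo (SD, n = 3 each). The highest mTEChi library, at 59.8% in WT, was below the lowest mTEClo library, at 69.6% in cHyper. Hba-a1 took 51.6% ± 1.81 of the adult alpha pair in cHyper mTEChi, 51.8% ± 1.09 in WT mTEChi, 50.2% ± 3.91 in cHyper mTEClo and 49.2% ± 1.37 in WT mTEClo, and its groups overlapped.

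**Figure D3:**
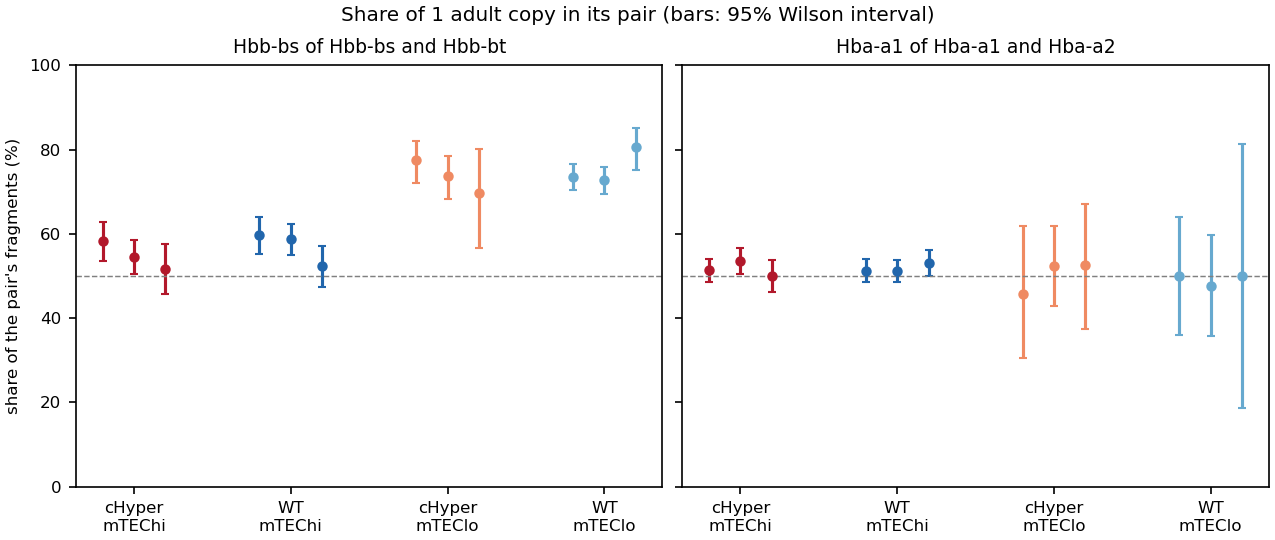
Share of Hbb-bs in the fragments of Hbb-bs and Hbb-bt (left) and of Hba-a1 in those of Hba-a1 and Hba-a2 (right), y axis in %, for each library by group; bars are 95% Wilson intervals, which cover counting error only, and the dashed line marks an even split. Hbb-bs lies at 51.7% to 59.8% in mTEChi and 69.6% to 80.7% in mTEClo.

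The proximal promoters are shown to let the reader compare the members that were high only in mTEChi with the adult beta pair, which was not. The 150 bases before the RefSeq start on GRCm38.p6 are given on the gene's strand for the 6 members that matched the RefSeq promoter table. For these genes the gene models behind the counts begin upstream of the RefSeq start. Capitals mark CACCC and CCAAT on either strand, GATAA on either strand, and TATAA or CATAAA on the gene's strand; where 2 matches touch, the capitals run on.
Hbb-y (chr7:103853208-103853357, minus strand): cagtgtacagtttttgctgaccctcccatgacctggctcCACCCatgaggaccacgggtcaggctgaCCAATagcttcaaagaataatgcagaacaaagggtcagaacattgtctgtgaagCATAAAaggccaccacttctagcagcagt
Hbb-bs (chr7:103827929-103828078, minus strand): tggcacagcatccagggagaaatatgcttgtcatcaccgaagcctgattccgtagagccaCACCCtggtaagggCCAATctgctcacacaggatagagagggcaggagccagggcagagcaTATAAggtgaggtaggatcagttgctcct
Hbb-bt (chr7:103813924-103814073, minus strand): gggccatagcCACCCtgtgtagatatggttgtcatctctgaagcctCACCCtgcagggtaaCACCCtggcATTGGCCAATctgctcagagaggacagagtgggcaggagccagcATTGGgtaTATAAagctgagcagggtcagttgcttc
Hba-x (chr11:32276450-32276599, plus strand): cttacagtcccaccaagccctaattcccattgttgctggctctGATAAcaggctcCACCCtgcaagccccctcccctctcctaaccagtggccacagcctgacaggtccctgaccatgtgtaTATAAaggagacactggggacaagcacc
Hba-a1 (chr11:32283522-32283671, plus strand): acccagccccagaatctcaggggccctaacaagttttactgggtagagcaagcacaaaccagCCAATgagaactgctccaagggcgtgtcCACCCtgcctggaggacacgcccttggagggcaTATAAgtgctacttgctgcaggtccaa
Hba-a2 (chr11:32296342-32296491, plus strand): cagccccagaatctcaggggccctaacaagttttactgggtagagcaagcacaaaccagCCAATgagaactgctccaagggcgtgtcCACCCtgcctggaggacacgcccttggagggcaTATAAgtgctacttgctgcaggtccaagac

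All 6 windows held CACCC, which 37.4% of 32851 windows of the same length in the table also held. A TATAA or CATAAA stood in all 6, against 13.0% of all windows, and began 27 to 30 bases before the start. CCAAT was found in 5 of 6, all but Hba-x, against 24.5% of all windows. Hbb-bt held 3 matches each of CACCC and CCAAT where Hbb-bs held 1 each, and the windows of these copies were 70.9% identical. GATAA was found in Hba-x alone, against 13.3% of all windows. The windows of Hba-a1 and Hba-a2 were 96.1% identical.

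In mTEClo the adult beta genes Hbb-bs and Hbb-bt fell in cHyper against WT, and both passed the test. Hbb-y was higher from few fragments and also passed, but it reached the test only through its mTEChi libraries. These calls were already known when the members were chosen, so their p-values are not independent of that choice. Hbb-bs averaged 3.82 ± 1.93 CPM in cHyper and 11.8 ± 2.39 CPM in WT, and the fitted level was 3.02-fold lower in cHyper (log2 fold change -1.60, SE 0.31, edgeR adjusted p = 0.00483). Hbb-bt averaged 1.30 ± 0.552 CPM in cHyper and 3.91 ± 1.5 CPM in WT, and the fitted level was 2.97-fold lower in cHyper (log2 fold change -1.57, SE 0.35, edgeR adjusted p = 0.0114). Every cHyper library was below every WT library for both, as for 12.6% of all genes tested. Hbb-y had 25 fragments in cHyper and 0 in WT, which was at least 7.96-fold higher with WT set to the same floor (edgeR adjusted p = 0.00242). Every cHyper library was above every WT library, as for 11.8% of all genes tested.

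These 3 were the members called of the 7 tested, 1 higher and 2 lower, and 4 had an unadjusted p under 0.05. Of all genes tested, 9.16% were called, 4.53% higher and 4.64% lower. Hbb-y passed the filter on low counts through its mTEChi libraries, and its highest level in mTEClo was 0.322 CPM. In a fit of the mTEClo libraries alone it did not pass that filter, and the calls there were 2, Hbb-bs and Hbb-bt. Counted as a single gene, the adult beta pair had a log2 fold change of -1.59 (SE 0.31, edgeR adjusted p = 0.00459), so the fall does not rest on the split of near-identical reads. Within the numbered replicates the pair was 2.97-fold, 2.49-fold and 5.00-fold lower in cHyper, in replicates 1, 2 and 3.

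The other 4 members did not pass the test in mTEClo. Hbb-bh1 had 13 fragments in cHyper and 1 in WT, a depth-scaled ratio of 12.4 with a 95% counting interval of 1.87 to 528 (log2 fold change 3.24, SE 1.25, edgeR adjusted p = 0.129). Like Hbb-y, it passed the filter on low counts through its mTEChi libraries. It was called by DESeq2 (adjusted p = 0.0476) and without cHyper mTEClo replicate 1 (edgeR adjusted p = 0.0192). That library had no Hbb-bh1 fragment, so leaving it out favours a difference. Hba-x had a log2 fold change of 0.32 (SE 0.59, edgeR adjusted p = 0.808). The adult alpha pair as a single gene averaged 1.58 ± 0.762 CPM in cHyper and 0.942 ± 0.601 CPM in WT, with a log2 fold change of 0.62 (SE 0.40, edgeR adjusted p = 0.385). Its direction was not shared by the replicates, with cHyper over WT ratios of 0.736, 1.59 and 5.79.

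In mTEChi, 0 of the 7 members passed edgeR's test, 0 had an unadjusted p under 0.05, and DESeq2 and limma-voom also called 0; of all genes tested edgeR called 1.98%. The log2 fold changes of cHyper over WT lay between -0.34 for Hba-x (SE 0.20, edgeR adjusted p = 0.447) and 0.31 for Hbb-bh1 (SE 0.33, edgeR adjusted p = 0.702). Every cHyper library was below every WT library for Hba-x, as for 13.3% of all genes tested. Hbb-y averaged 11.6 ± 1.80 CPM in cHyper and 10.4 ± 1.64 CPM in WT, and the adult beta pair 11.5 ± 2.15 CPM in cHyper and 13.4 ± 2.64 CPM in WT. For the adult beta pair the log2 fold change was -0.21 (SE 0.30, edgeR adjusted p = 0.787), and for the adult alpha pair -0.26 (SE 0.30, edgeR adjusted p = 0.728).

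**Figure D4:**
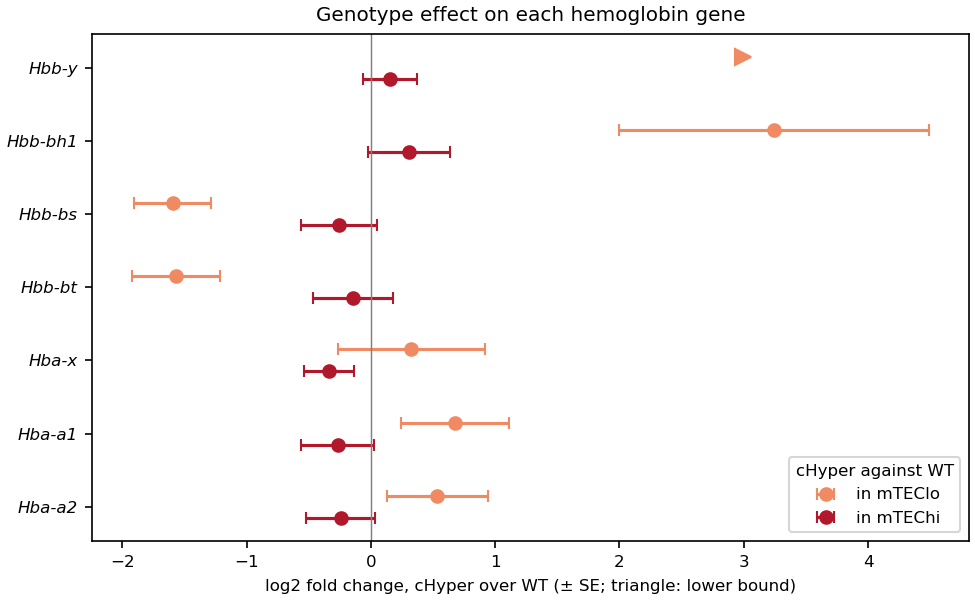
Log2 fold change of cHyper over WT (x axis) for each hemoglobin gene (y axis), in mTEClo (light) and mTEChi (dark); bars are SEs, and the triangle is the lower bound for Hbb-y in mTEClo, where WT had no fragment. Hbb-bs and Hbb-bt lie at -1.60 and -1.57 in mTEClo, and the mTEChi values lie between -0.34 and 0.31.

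The genotype effect in mTEChi minus that in mTEClo, tested as an interaction, was called by edgeR for 1 of 7 members, with 2.06% of all genes called. That member was Hbb-y (adjusted p = 0.0146), and the call was lost with replicates 1 and 2 alone (adjusted p = 0.108). It rests on the same 25 fragments against 0 in mTEClo, in a gene chosen with its level in mTEChi against mTEClo in view, and is no evidence beyond the mTEClo test. The difference was 1.34 for Hbb-bs (SE 0.44, edgeR adjusted p = 0.150) and 1.42 for Hbb-bt (SE 0.48, edgeR adjusted p = 0.163), so the fall of the adult beta genes is not shown by this test to differ between mTEClo and mTEChi. It passed for Hbb-bs with DESeq2 (adjusted p = 0.0481), and without the filter on low counts for Hbb-bs (edgeR adjusted p = 0.0265) and Hbb-bt (edgeR adjusted p = 0.0425).

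Markers of other cells were set beside these levels, since in bulk libraries fewer cells of a type and less RNA per cell cannot be told apart. Of 9 red cell precursor markers tested, all 9 were higher in every mTEChi library than in every mTEClo library, in both genotypes. Of all genes tested, 40.3% in cHyper and 41.8% in WT did so. Their summed TPM was 43.5 to 55.5 in cHyper mTEChi, 58.6 to 72.0 in WT mTEChi, 1.45 to 1.84 in cHyper mTEClo and 1.26 to 1.66 in WT mTEClo, and none was at 0 over a whole group. Alas2, the first enzyme of heme synthesis in red cells, was at 11.4 ± 0.231 TPM in cHyper mTEChi, 16.9 ± 1.69 TPM in WT mTEChi, 0.511 ± 0.0649 TPM in cHyper mTEClo and 0.610 ± 0.121 TPM in WT mTEClo. In mTEClo, 1 of the 9 markers passed the genotype test, against 9.16% of all genes tested, and the median log2 fold change was 0.15. The marker that passed was Epb42, a red cell membrane gene, from only 41 fragments in cHyper mTEClo and 8 in WT mTEClo.

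Macrophage and dendritic cell markers were also higher in mTEChi. Their summed TPM was 773 to 955 in cHyper mTEChi, 903 to 1108 in WT mTEChi, 29.1 to 58.1 in cHyper mTEClo and 31.7 to 40.8 in WT mTEClo, led by lysozyme gene Lyz2. Of the 9, 9 in cHyper and 8 in WT were higher in every mTEChi library than in every mTEClo library, against 40.3% and 41.8% of all genes tested. None was at 0 over a group. The 5 platelet markers summed to 66.5 to 78.3 TPM in cHyper mTEChi, 74.1 to 78.1 TPM in WT mTEChi, 6.35 to 9.005 TPM in cHyper mTEClo and 5.18 to 5.77 TPM in WT mTEClo. The 5 endothelial markers summed to 12.4 to 15 TPM in cHyper mTEChi, 16.4 to 19.8 TPM in WT mTEChi, 3.48 to 3.76 TPM in cHyper mTEClo and 4.44 to 5.55 TPM in WT mTEClo. The 10 thymocyte markers summed to 49.0 to 52.8 TPM in cHyper mTEChi, 46.8 to 50.5 TPM in WT mTEChi, 13.0 to 25.2 TPM in cHyper mTEClo and 8.28 to 18 TPM in WT mTEClo. The median log2 fold change of cHyper over WT in mTEClo was 1.26 for the thymocyte markers, 0.33 for the platelet, -0.36 for the macrophage and dendritic cell and -0.53 for the endothelial markers, against 0.0015 over all genes tested. Among the thymocyte markers Rag1, a gene of the antigen receptor recombinase, had the smallest adjusted p in mTEClo (log2 fold change 1.80, SE 0.57, edgeR adjusted p = 0.0625). The part of these cells in the hemoglobin levels was not tested.

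Beside the higher count of Hbb-y in cHyper mTEClo stood a rise of Aire there, with a log2 fold change of 1.64 (edgeR adjusted p = 2.39e-05). Of 7 markers of mature mTEC, Aire and the class II transactivator gene Ciita rose, the costimulatory gene Cd80 fell, and 4 did not pass the test. Of all genes tested, 4.53% were called higher and 4.64% lower there. The summed TPM of the 7 was 13310 to 14626 in cHyper mTEClo and 12296 to 13190 in WT mTEClo, and the median log2 fold change was -0.05. None was at 0, and the part of these cells in the level of Hbb-y was not tested.

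Genes of the red cell membrane and of reticulocytes, the youngest circulating red cells, mostly showed the distribution of the embryonic globins. Of 19 measured, 16 were higher in every mTEChi library than in every mTEClo library, in cHyper and in WT, against 40.3% and 41.8% of all genes tested. In WT 2 lay the other way, against 31.4% of all genes. The median log2 fold change was 3.93 in cHyper and 4.23 in WT, against 0.13 and 0.12 over all genes tested. Epb42, the membrane skeleton protein 4.2, was at 11.0 ± 2.97 TPM in cHyper mTEChi, 14.2 ± 1.74 TPM in WT mTEChi, 0.162 ± 0.103 TPM in cHyper mTEClo and 0.0249 ± 0.0216 TPM in WT mTEClo. Car1, a red cell carbonic anhydrase, was at 11.4 ± 1.9 TPM in cHyper mTEChi, 14.1 ± 1.36 TPM in WT mTEChi, 0.155 ± 0.179 TPM in cHyper mTEClo and 0.0401 ± 0.0392 TPM in WT mTEClo. Bpgm, whose product lowers the oxygen affinity of hemoglobin, differed less between the populations than Epb42 and Car1. It was at 18.5 ± 2.60 TPM in cHyper mTEChi and 17.4 ± 0.281 TPM in WT mTEChi. In mTEClo it was at 19.8 ± 1.09 TPM in cHyper and 21.8 ± 2.30 TPM in WT. By TPM every WT mTEChi library was below every WT mTEClo library (log2 fold change -0.52), while the cHyper populations overlapped.

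**Figure D5:**
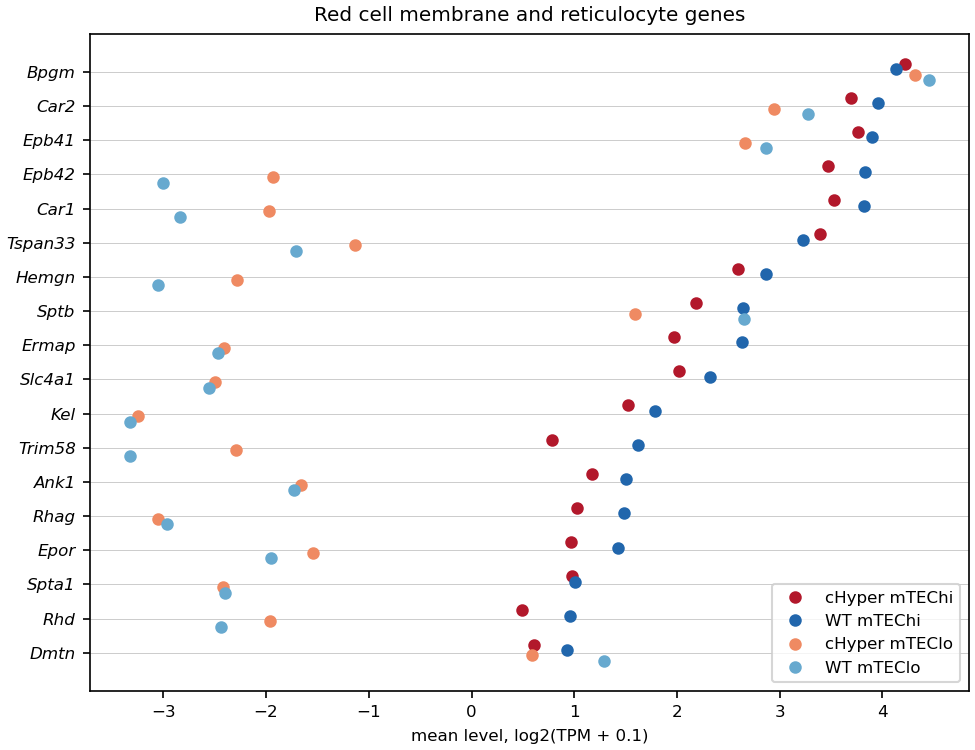
Mean level, on the x axis as log2(TPM + 0.1), of the 18 red cell membrane and reticulocyte genes with a mean of at least 0.5 TPM over the 12 libraries (a limit set after the values were seen), with a point for each of the 4 groups. Epb42, Car1 and Hemgn lie far apart between mTEChi and mTEClo, while Bpgm, Sptb and Dmtn do not.

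The genotype test in mTEClo called 3 of these 19 genes, where it called 9.16% of all genes tested, with a median log2 fold change of 0.14 against 0.0015 over all genes tested. Epb42 rose (log2 fold change 2.29, edgeR adjusted p = 0.0281), with mean levels below 0.2 TPM in both genotypes. This call rests on few fragments, 41 in cHyper mTEClo and 8 in WT mTEClo, against 2982 in cHyper mTEChi and 3743 in WT mTEChi. Sptb, the beta spectrin gene, fell to 2.92 ± 0.911 TPM in cHyper mTEClo, against 6.18 ± 1.06 TPM in WT mTEClo (log2 fold change -1.07, edgeR adjusted p = 0.00280). Dmtn, the actin-bundling membrane protein dematin, fell to 1.41 ± 0.161 TPM in cHyper mTEClo, against 2.35 ± 0.393 TPM in WT mTEClo (log2 fold change -0.72, edgeR adjusted p = 0.0136). In mTEChi the smallest edgeR adjusted p among the 19 was 0.238, for the blood group gene Ermap, and the median log2 fold change was -0.22.

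Genes of heme synthesis, which most cells carry out at some level, differed less between the populations, with a median log2 fold change of 0.53 in cHyper and 0.30 in WT over 12 genes. Of the 12, 7 in cHyper and 6 in WT were higher in every mTEChi library than in every mTEClo library, against 40.3% and 41.8% of all genes tested, and 4 in each genotype lay the other way, against 28.4% and 31.4%. Alas1, the housekeeping form of the first enzyme, was at 114 ± 4.43 TPM in cHyper mTEChi, 93.3 ± 16.7 TPM in WT mTEChi, 19.7 ± 2.42 TPM in cHyper mTEClo and 20.3 ± 1.67 TPM in WT mTEClo. The genotype test in mTEClo called 1 of 12, against 9.16% of all genes tested. This was Ppox, a late enzyme of the pathway, which fell to 23.5 ± 0.914 TPM in cHyper, against 33.6 ± 3.37 TPM in WT (log2 fold change -0.49, edgeR adjusted p = 0.00472). In mTEChi the smallest edgeR adjusted p was 0.130, for Alas1.

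Of 13 transcription factors and cofactors known for globin and red cell gene control, 7 in cHyper and 9 in WT were higher in every mTEChi library than in every mTEClo library, against 40.3% and 41.8% of all genes tested. The other way lay 4 in cHyper and 3 in WT, against 28.4% and 31.4% of all genes. Klf1, the activator of adult beta globin, was at 2.53 ± 0.373 TPM in cHyper mTEChi, 4.17 ± 1.19 TPM in WT mTEChi, 0.555 ± 0.0740 TPM in cHyper mTEClo and 0.496 ± 0.215 TPM in WT mTEClo. Bcl11a, a repressor of embryonic globin genes in adult red cells, was at 2.15 ± 0.275 TPM in cHyper mTEChi, 2.24 ± 0.216 TPM in WT mTEChi, 7.10 ± 0.345 TPM in cHyper mTEClo and 9.20 ± 0.904 TPM in WT mTEClo. Its genotype difference in mTEClo narrowly missed the threshold (log2 fold change -0.36, edgeR adjusted p = 0.0502).

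In mTEClo 1 of the 13 was called, against 9.16% of all genes tested: Lmo2, a bridging cofactor, fell to 10.5 ± 2.35 TPM in cHyper, against 25.5 ± 4.46 TPM in WT (log2 fold change -1.26, edgeR adjusted p = 0.000714). In mTEChi 1 of the 13 was called, against 1.98% of all genes tested: Ldb1, its partner that links the beta globin locus control region to its promoters, rose to 31.3 ± 2.70 TPM in cHyper, against 23.8 ± 1.74 TPM in WT (log2 fold change 0.49, edgeR adjusted p = 0.0423). The interaction was also called for Ldb1 (edgeR adjusted p = 0.0372).

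Among globin genes outside the chosen 7, Cygb, the widely expressed cytoglobin, was the most abundant. It was at 75.3 ± 14.4 TPM in cHyper mTEChi, 64.3 ± 8.25 TPM in WT mTEChi, 18 ± 6.46 TPM in cHyper mTEClo and 7.60 ± 1.38 TPM in WT mTEClo. Cygb alone of the 5 such genes tested passed the test in mTEClo, against 9.16% of all genes tested. It was higher in cHyper (log2 fold change 1.27, edgeR adjusted p = 0.00252). Adgb, the testis-enriched androglobin, was at 30.0 ± 8.02 TPM in cHyper mTEChi, 40.4 ± 11.2 TPM in WT mTEChi, 2.25 ± 0.568 TPM in cHyper mTEClo and 1.40 ± 0.582 TPM in WT mTEClo. Of the beta cluster's minor members, Hbb-bh0 had 16 and 20 fragments in cHyper and WT mTEChi, Hbb-bh2 8 and 6, and Hbb-bh3 8 and 10, and all had 0 in mTEClo.

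Genes next to the alpha cluster were compared by position, from 100 kb before to 100 kb after it. Of 9 other genes there, 7 were tested. Nprl3, whose introns hold the alpha globin enhancers, was even, with 8.40 ± 0.467 TPM in cHyper mTEChi, 8.98 ± 0.486 TPM in WT mTEChi, 8.01 ± 0.495 TPM in cHyper mTEClo and 8.83 ± 0.0707 TPM in WT mTEClo. Snrnp25, a spliceosome subunit gene, was higher in mTEChi, with 118 ± 12.6 TPM in cHyper and 168 ± 29.8 TPM in WT, against 29.6 ± 7.91 TPM in cHyper mTEClo and 29.2 ± 6.99 TPM in WT mTEClo. Il9r, the interleukin 9 receptor gene, was also higher, with 19.0 ± 3.52 TPM in cHyper mTEChi and 31.1 ± 1.53 TPM in WT mTEChi, against 0.664 ± 0.412 TPM in cHyper mTEClo and 1.09 ± 0.375 TPM in WT mTEClo. Sh3pxd2b lay the other way, with 10.8 ± 1.29 TPM in cHyper mTEChi, 9.21 ± 1.92 TPM in WT mTEChi, 47.8 ± 3.94 TPM in cHyper mTEClo and 60.2 ± 6.56 TPM in WT mTEClo. In the beta cluster's window, 5 other genes were listed and 0 had enough fragments to be tested.

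The genes whose levels moved most like Hbb-y over the 12 libraries, by Pearson correlation of log2 CPM among 16055 genes, were Crygs, a lens crystallin (r = 0.999), S100a14 (0.997), Lce1j, a cornified envelope gene (0.996), Tmem18 (0.995) and Csn1s2a, a milk casein (0.995). These correlations span mTEChi and mTEClo, the contrast in view when Hbb-y was chosen. Within the 6 mTEChi libraries r was 0.903, 0.890, 0.598, 0.488 and 0.285 in the same order. Within the 6 mTEClo libraries r was 0.962 to 0.986. For the summed adult alpha pair Slc17a8, a vesicular glutamate transporter gene, was the nearest (r = 0.995, but 0.709 within mTEChi and 0.956 within mTEClo). For the summed adult beta pair the nearest were Itgb5, an integrin subunit gene (r = 0.929), and Tulp1, a photoreceptor gene (0.925). Itgb5 was at 7.16 TPM in cHyper mTEChi, 9.68 TPM in WT mTEChi, 2.25 TPM in cHyper mTEClo and 8.90 TPM in WT mTEClo. All points of these correlations share the same libraries and their depth.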

How the data were processed

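The authors deposited 1 table with gene counts of fragments and TPM for 12 libraries, in which the runs of replicates 1 and 2 of the 20 labelled samples had been combined. TPM were used as deposited, for levels between genes, and 1 other per-sample column was not used. The submitters' processing notes name TopHat2 2.1.1, featureCounts (Subread 2.0.1), SAMtools 1.9 and build mm10. How reads that map to several places were treated, which strand was counted and which annotation was used is not given in the sources used here. All 7 genes had the coordinates of GENCODE M21, as did 51286 of the 51569 table genes found there by ID.

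The test was the quasi-likelihood F test of edgeR 4.0.16 (R 4.3.3) on the counts, scaled by TMM and filtered with filterByExpr, in a fit of all 12 libraries that left 8 residual degrees of freedom. The filter left 28932 genes, and p-values were adjusted over all of them by Benjamini-Hochberg, with calls under 0.05. CPM are on the TMM scale, except those of Xist, which are per library total. Fitted log2 fold changes used edgeR's default prior count, and the log2 CPM behind correlations used a prior count of 2. Folds against a group at 0 used a floor of 3 fragments over the group. Coding sequences are the longest open reading frames of the GENCODE M21 transcripts. The fits were tested on simulated data.

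The members, the gene lists and the alternatives were chosen with earlier results of these data known, among them the calls of Hbb-y, Hbb-bs and Hbb-bt in mTEClo. Named genes outside the members were those with the smallest p or highest mean TPM in each list, the neighbours by position and the genes of highest correlation; other neighbours and markers named were picked from those lists after their values were seen. Ahsp, Hba-ps3 and Hba-ps4 were not analysed here, and some genes that the naming rule or the lists hold are not reported here by name. Whether replicates are separate animals is not in the labels, and the p-values therefore reflect only how much these libraries vary, which may be technical. Deviations of same-numbered cHyper and WT mTEChi libraries were weakly correlated (r of 0.167, 0.136 and 0.206). Replicate 3 stood apart in depth and sex-linked RNA in every group, so these values do not show that the numbers pair libraries. The alternatives were DESeq2 size factors, library totals, no filter, DESeq2 1.42.0, limma-voom (limma 3.58.1), the replicate block, fits of 2 groups, summed copies, each library left out in turn, and, added after the data were seen, replicates 1 and 2 alone. The plot of red cell genes leaves out a list member that is not named, by a limit on mean TPM chosen for that purpose after the values were seen; counts over the list include it.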

Additional observations from a re-analysis of the deposited data

Results flagged for a closer look

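For Hbb-y the interaction of genotype and population passed the threshold. The effect in mTEChi minus that in mTEClo was -5.95 on the log2 scale (edgeR adjusted p = 0.0146), with 1292 fragments in cHyper mTEChi against 1232 in WT mTEChi, and 25 in cHyper mTEClo against 0 in WT mTEClo. Since WT mTEClo had no fragment, the size of this fitted difference depends on edgeR's default prior count and is no measure of fold. All 3 cHyper mTEClo libraries had fragments, 5, 14 and 6. The call rests on these few fragments, in a gene that was chosen with its level in mTEChi against mTEClo in view and that passed the filter on low counts through mTEChi, so it adds no evidence to the mTEClo test. It was lost with replicates 1 and 2 alone (edgeR adjusted p = 0.108).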

How the results depend on the processing

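In mTEClo, Hbb-y, Hbb-bs and Hbb-bt were called in all 20 alternatives that tested each. Hbb-y was filtered out of the fit of the mTEClo libraries alone. Leaving out 1 library in turn gave 3 to 4 calls there. In mTEChi no alternative called a member. The difference between the genotype effects was called for 3 members without the filter on low counts and for 2 with DESeq2, against 1. With replicates 1 and 2 alone it was called for 0, with Hbb-y at an adjusted p of 0.108; the cause was not tested, and that fit has fewer libraries. With the replicate block the calls stayed at 3, 0 and 1, and it changed no call of a member. Same-numbered mTEClo libraries of cHyper and WT had correlations of 0.180, 0.0972 and 0.171, similar to those in mTEChi. Whether the numbers pair libraries is not known in either population.

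Leaving out 1 library moved the log2 fold change of mTEChi over mTEClo for genes with few mTEClo fragments. For Hbb-bh1 it ran from 5.34 to 7.35 in cHyper and from 8.41 to 10.89 in WT, and for Hba-x from 6.71 to 7.86 in cHyper and from 7.34 to 8.08 in WT. The median over all genes in that contrast was 0.13 in cHyper and 0.12 in WT with TMM, and 0.30 and 0.34 with library totals.

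Over all genes, the mTEChi genotype test called 572 genes, but 1419 with DESeq2, 862 with limma-voom, 1250 with the replicate block, 1126 with only the 2 groups fitted, 312 with replicates 1 and 2 and 296 to 678 without 1 library. The difference called 595, but 1103 without the filter, 1415 with DESeq2, 1186 with the block, 282 with replicates 1 and 2 and 338 to 619 without 1 library. The mTEClo test called 2651, but 3881 with DESeq2, 3916 with the block, 2032 with replicates 1 and 2 and 1783 to 2580 without 1 library. Depth limits the embryonic genes in mTEClo, where the floor of 3 fragments over the WT group equals 0.0281 CPM and Hbb-bh1 had 1 fragment in that group.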
